A study of Mus musculus with 4 samples.

Results

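The genes described here are 34 genes of fatty acid and triglyceride synthesis in mouse liver, from regulators of lipogenesis to the enzymes that esterify fatty acids into triglyceride. They were chosen by symbol, and each was read from the probe set that the platform annotation gives to that symbol alone, taking the brightest where there were several. A probe set with 1 symbol was present for 30 of the 34, and all 30 passed the filter on dim probe sets that left 13308 genes of 22180. The filter kept genes whose mean log2 value over the 4 arrays was at or above the 40th percentile, which was 3.47. Lpin2 had 2 probe sets and the other 29 genes had 1. G6pdx and Acsl1 were not read because no probe set carries their symbol in the annotation used, and Scd2 and Acsl3 because theirs carry several symbols.

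De novo lipogenesis turns surplus carbohydrate into fat: citrate leaves the mitochondrion, is cleaved to acetyl-CoA, carboxylated to malonyl-CoA and built into palmitate by fatty acid synthase with NADPH as the reductant. Elongases and desaturases then modify palmitate, acyl-CoA synthetases activate free fatty acids, and acyltransferases assemble triglyceride on glycerol-3-phosphate. In liver the pathway is known to be driven by SREBP-1c under insulin and by ChREBP under glucose, and dietary polyunsaturated fat is known to lower many of its transcripts.

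Total liver RNA of C57Bl6 mice aged 16 weeks was hybridised to 4 Affymetrix arrays, 1 for each of 4 groups. The groups were ALB Cre MyD88 lox/lox knockout mice on high-fat diet, MyD88 lox/lox wild-type mice on high-fat diet, the same knockout on control diet, and the same wild type on control diet. The high-fat diet held 60% fat and the control diet 9.4% fat. Every group carried the floxed Myd88 gene, the adaptor of Toll-like and interleukin-1 receptor signalling, and the knockout differed by a Cre recombinase under the albumin promoter, which is active in hepatocytes and leaves the gene in the other cells of the liver. RNA of 4 to 5 mice, selected for RNA quality, was pooled for each array, so each group had 1 array, the spread between mice was not measured, and the number of arrays limits the precision. The sources used here give neither the length of feeding nor the feeding state or the hour of tissue collection. In whole tissue, fewer cells of a type and less RNA per cell cannot be told apart.

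The values were log2 expression values with array medians between 3.53 and 3.56, and the arrays correlated with a Pearson r between 0.985 and 0.990 across all probe sets. Myd88 itself was lower in knockout livers by a log2 difference of -0.21 on high-fat diet and -0.19 on control diet, but its probes were not placed against the deleted exons here, so this is no check of the deletion. Hepatocyte markers were abundant on all arrays, with Alb between 13.64 and 13.70 on the log2 scale. The arrays did not differ by genotype and diet alone. All 13 exocrine pancreas markers read were higher in knockout than in wild type on both diets and higher on high-fat than on control diet in both genotypes, and their summed linear level was 7296 on the knockout high-fat array, 3143 on the wild-type high-fat array, 3494 on the knockout control array and 656 on the wild-type control array. Saa2, an acute phase gene whose probes may be shared with near-identical copies, had log2 values of 10.83 in knockout and 10.73 in wild type on high-fat diet, against 12.34 in knockout and 4.97 in wild type on control diet. The wild-type control array was thus the lowest for the pancreas markers and for Saa2. Across the 16 acute phase genes read, the knockout control array stood out as well. All 16 were higher in knockout than in wild type on control diet. On high-fat diet 15 were lower than on control diet in knockout, against 4 in wild type. The wild-type high-fat array was the highest for all 7 skeletal muscle markers read. With 1 array a group, no result can be given with any of these arrays left out. The part of these differences in the results below was not tested.

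The 250 bases before the annotated start are shown for the 4 genes whose diet differences agreed in sign between the genotypes and were the largest, among those with an entry in the RefSeq promoter table of GRCm38.p6. They are shown so that the annotated promoter of each gene can be read beside its values, and the arrays do not show which start the transcripts used. Capitals mark a CCAAT box, which is bound by NF-Y, a factor known to act beside SREBP at lipogenic promoters, and ATTGG is the same box on the opposite strand. The Acacb stretch lies at chr5:114165268-114165517 on the plus strand, inside the annotated gene, and thus belongs to an internal start. The Me1 stretch, for the upstream of 2 starts in the table, lies at chr9:86695915-86696164 on the minus strand. Those of Thrsp and Acss2 lie at chr7:97417551-97417800 on the minus strand and chr2:155517793-155518042 on the plus strand.
Acacb: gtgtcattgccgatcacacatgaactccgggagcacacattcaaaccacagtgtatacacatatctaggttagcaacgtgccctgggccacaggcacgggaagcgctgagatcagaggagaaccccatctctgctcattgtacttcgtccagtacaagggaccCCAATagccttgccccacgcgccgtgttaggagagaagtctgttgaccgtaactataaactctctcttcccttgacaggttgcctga
Me1: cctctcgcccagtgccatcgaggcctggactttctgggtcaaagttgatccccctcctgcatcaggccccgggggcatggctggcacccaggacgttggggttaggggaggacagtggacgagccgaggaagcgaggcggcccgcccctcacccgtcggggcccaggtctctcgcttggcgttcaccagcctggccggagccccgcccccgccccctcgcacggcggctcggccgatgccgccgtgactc
Thrsp: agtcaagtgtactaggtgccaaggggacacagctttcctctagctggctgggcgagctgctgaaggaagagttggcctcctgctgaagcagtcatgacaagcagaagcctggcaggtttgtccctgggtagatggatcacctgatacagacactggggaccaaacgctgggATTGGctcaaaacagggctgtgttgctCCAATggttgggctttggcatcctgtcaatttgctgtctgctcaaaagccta
Acss2: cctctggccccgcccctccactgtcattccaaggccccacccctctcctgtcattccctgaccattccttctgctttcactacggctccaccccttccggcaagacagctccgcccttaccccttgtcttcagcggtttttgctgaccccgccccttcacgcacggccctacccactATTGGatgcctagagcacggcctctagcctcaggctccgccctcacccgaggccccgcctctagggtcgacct
The CCAAT box began at base -87 from the start in Acacb, at -79 (opposite strand) and -52 in Thrsp, and at -73 (opposite strand) in Acss2. The Me1 stretch held none, but the promoter of the other Me1 start in the table, not printed here, held 1. Across the 300 bases from 250 before to 50 after the start, with both strands searched, 28 of the 34 genes had 40 promoters in the table. The CCAAT box stood in 19 of these 40 promoters (47.5%), against 37.4% of all 32851 promoters. The E-box CACGTG, the core that ChREBP and USF factors recognise, stood in 5 of 40 (12.5%), against 7.15% of all promoters. The sterol regulatory element TCACNCCAC, the letters that SREBP is known for, stood in 2 of 40 (5.0%), against 1.24% of all promoters. A sterol regulatory element can share its closing CAC with an E-box, and a match is a description of the letters only. Scd1, Scd2, Fads1, Elovl3, Dgat1 and Dgat2 are named only.

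The question of the first comparison was how the lipogenic programme differed between high-fat and control diet in each genotype. Several genes in the middle of the pathway were lower on high-fat diet in both genotypes, most of all Acacb, Acss2, Me1, Scd1, Elovl3 and Elovl5. Acaca, Fasn and Pgd were lower by less, Acly overlapped between the diets, and Elovl2 and Elovl6 differed little. The regulators Srebf1 and Thrsp were higher, and the enzymes of triglyceride assembly differed little. The central 95% of all genes lay between -0.52 and 0.57 in knockout and between -0.59 and 0.51 in wild type. Acaca and Pgd in both genotypes, and Fasn in knockout, lay inside that range. At least 2-fold lower on high-fat diet were 2 of the 30 genes in knockout livers (0.286% of all genes read) and 5 of 30 in wild-type livers (0.564%). No gene of the 30 was at least 2-fold higher in knockout (0.323% of all genes) or in wild type (0.488%). After cyclic loess normalization, however, Thrsp passed this threshold in wild type, with a log2 difference of 1.016. At a threshold of 1.5-fold, 5 were lower (1.72% of all genes) and 2 higher (2.28%) in knockout, and 7 were lower (2.52%) and 2 higher (1.68%) in wild type. Both high-fat arrays lay below both control arrays for 16 of 30 genes (21.2% of all genes), both lay above for 4 (19.1%), and the arrays of the diets overlapped for 10. These differences between 2 arrays have no replicate check and no p-value.

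The median of the 30 diet differences was -0.12 in knockout, where 20 genes were lower and 10 higher, and -0.27 in wild type, where 24 were lower and 6 higher. Over all genes read the medians were 0.01 in knockout and -0.03 in wild type, with 47.7% and 55.0% of genes lower. Among 648 genes at least as bright as the median of the 30, a comparison chosen after the values were seen, the medians were 0.04 in knockout and 0.00 in wild type. Lower in both genotypes were 19 of 30 genes (29.0% of all genes) and higher in both were 5 (26.1%). The diet differences in knockout and in wild type share no array. Their Pearson r was 0.91 and their Spearman rho 0.80 across the 30 genes, which are not independent replicates, against 0.24 and 0.19 across all genes.

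The effect of diet over both genotypes was also fitted by limma with genotype as an additive term. Its single residual degree of freedom is the interaction of diet and genotype, and its errors and p-values therefore say nothing of the spread between mice. Adjusted over all genes, no gene was called for diet (0.0% of all genes, 0 of the 30), and the smallest adjusted p of any gene was 0.163, with 1238 genes at an unadjusted p under 0.05. At that unadjusted threshold 12 of the 30 genes were lower on high-fat diet (4.97% of all genes) and 2 were higher (4.33%). After cyclic loess normalization of the deposited values, limma called 70 genes for diet (0.526%), among them 5 of the 30, a count added after the data were seen. In that setting Acacb (adjusted p = 0.0104), Me1 (0.0240), Scd1 (0.0353) and Elovl3 (0.0369) fell and Thrsp (0.0275) rose. Over the 7 settings tried the adjusted p ranged up to 0.216 for Acacb, 0.309 for Me1 and Scd1, 0.320 for Elovl3 and 0.293 for Thrsp, and loess was the setting under 0.05 for each.

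**Figure D1:**
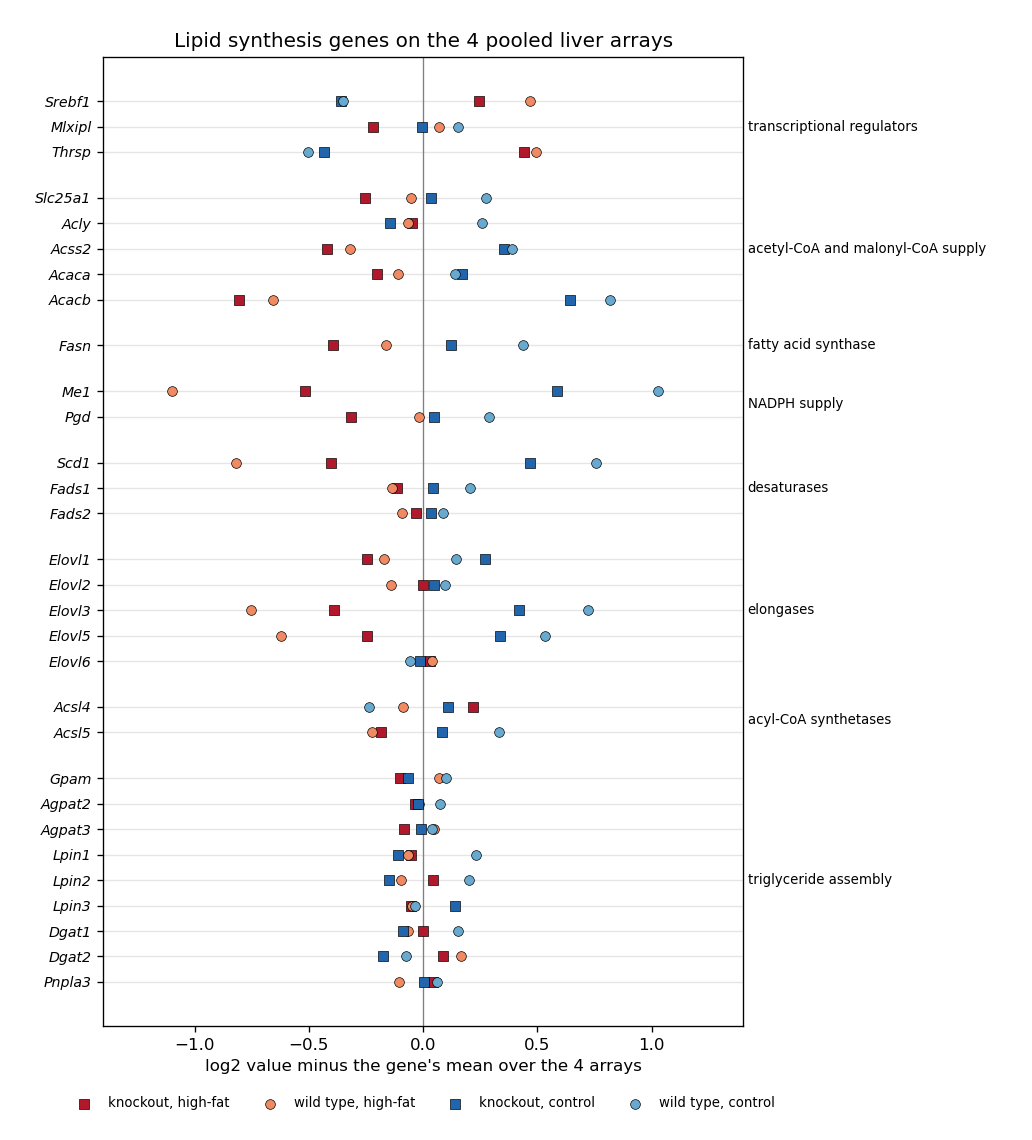
Each row is 1 gene, grouped by role, and each point is 1 array, placed by its log2 value minus the gene's mean over the 4 arrays (squares knockout, circles wild type, red high-fat, blue control). Both high-fat arrays lie left of both control arrays for 16 genes, right of them for 4, and the points of the triglyceride assembly enzymes crowd around 0.

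The 3 genes grouped here as transcriptional regulators did not differ alike. Srebf1 (probe set 17263535), which encodes the SREBP-1 factors that drive lipogenic genes, had log2 values of 7.22 in knockout and 7.44 in wild type on high-fat diet, against 6.61 in knockout and 6.62 in wild type on control diet. Both high-fat arrays were above both control arrays, by 1.52-fold in knockout and 1.76-fold in wild type, and limma's diet effect was 0.71 (SE 0.13, adjusted p = 0.260). Thrsp (probe set 17493432), the thyroid hormone responsive nuclear protein Spot 14 of lipogenic tissues, had 10.90 in knockout and 10.95 in wild type on high-fat diet, against 10.03 in knockout and 9.96 in wild type on control diet. The arrays of the diets did not overlap, the high-fat arrays were 1.83-fold higher in knockout and 1.998-fold in wild type, just short of the 2-fold threshold there, and the diet effect was 0.94 (SE 0.12, adjusted p = 0.203 by limma). It ranked 22 among all genes by limma's p for diet. Mlxipl (probe set 17443185), which encodes ChREBP, the glucose-responsive factor, had 9.30 in knockout and 9.59 in wild type on high-fat diet, against 9.51 in knockout and 9.67 in wild type on control diet. Its arrays overlapped between diets, with a diet effect of -0.15 (SE 0.12, adjusted p = 0.786 by limma).

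Of the 5 genes that supply acetyl-CoA and malonyl-CoA, 4 were lower on high-fat diet in both genotypes. Acacb (probe set 17440826), the mitochondrial-surface acetyl-CoA carboxylase whose malonyl-CoA restrains fatty acid oxidation, had log2 values of 5.19 in knockout and 5.34 in wild type on high-fat diet, against 6.64 in knockout and 6.82 in wild type on control diet. The high-fat arrays were far below the control arrays, by 2.73-fold in knockout and 2.78-fold in wild type, and the near equality of these values gave a diet effect of -1.46 (SE 0.12, adjusted p = 0.163), placing it at rank 2 of all genes by limma's p. Acaca (probe set 17254395), the cytosolic acetyl-CoA carboxylase of lipogenesis, had 8.04 in knockout and 8.13 in wild type on high-fat diet, against 8.41 in knockout and 8.38 in wild type on control diet. It was lower on both high-fat arrays too, but by 1.29-fold in knockout and 1.19-fold in wild type, with a diet effect of -0.31 (SE 0.12, adjusted p = 0.528 by limma). Acss2 (probe set 17378359), the cytosolic enzyme that makes acetyl-CoA from acetate, had 7.67 in knockout and 7.77 in wild type on high-fat diet, against 8.44 in knockout and 8.47 in wild type on control diet. Its diet effect was -0.74 (SE 0.12, adjusted p = 0.229 by limma), 1.71-fold in knockout and 1.64-fold in wild type, with little difference between genotypes on either diet. Slc25a1 (probe set 17328829), the mitochondrial citrate carrier, had 9.26 in knockout and 9.46 in wild type on high-fat diet, against 9.54 in knockout and 9.79 in wild type on control diet, a diet effect of -0.31 (SE 0.12, adjusted p = 0.528 by limma). The exception was Acly, the ATP citrate lyase that cleaves citrate, with 8.70 in knockout and 8.69 in wild type on high-fat diet, against 8.61 in knockout and 9.01 in wild type on control diet. Its wild-type control array was the high one and the other 3 lay within a narrow range, so the arrays of the diets overlapped.

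Fasn (probe set 17273348), the synthase that builds palmitate, had log2 values of 8.71 in knockout and 8.94 in wild type on high-fat diet, against 9.23 in knockout and 9.54 in wild type on control diet. The high-fat arrays were below the control arrays by 1.43-fold in knockout and 1.52-fold in wild type, and limma's diet effect was -0.56 (SE 0.12, adjusted p = 0.320). On each diet the knockout array was also below the wild-type array. Of the genes of NADPH supply, Me1 (probe set 17529398), the cytosolic malic enzyme, had 9.40 in knockout and 8.81 in wild type on high-fat diet, against 10.50 in knockout and 10.94 in wild type on control diet. This was the largest diet effect of the 30 genes, -1.61 (SE 0.25, adjusted p = 0.217 by limma), and it was 2.14-fold in knockout and 4.36-fold in wild type. Pgd (probe set 17433040), an NADPH-yielding dehydrogenase of the pentose phosphate pathway, had 6.47 in knockout and 6.77 in wild type on high-fat diet, against 6.84 in knockout and 7.08 in wild type on control diet. It was lower on both high-fat arrays by 1.28-fold in knockout and 1.24-fold in wild type, with a diet effect of -0.34 (SE 0.12, adjusted p = 0.503 by limma).

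All 3 desaturases read were lower on both high-fat arrays, but by very different amounts. Scd1 (probe set 17365098), the hepatic stearoyl-CoA desaturase that makes oleate and palmitoleate, had log2 values of 11.75 in knockout and 11.34 in wild type on high-fat diet, against 12.62 in knockout and 12.91 in wild type on control diet. That is 1.83-fold lower in knockout and 2.97-fold lower in wild type, with a diet effect of -1.22 (SE 0.19, adjusted p = 0.217 by limma). Fads1 and Fads2, the desaturases of polyunsaturated fatty acids, were lower by log2 differences of -0.16 and -0.07 in knockout and of -0.34 and -0.18 in wild type, and neither had an unadjusted p under 0.05.

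The 5 elongases ranged from a clear difference to none. Elovl3 (probe set 17359918), an elongase of saturated and monounsaturated very long chain fatty acids, had log2 values of 10.81 in knockout and 10.44 in wild type on high-fat diet, against 11.62 in knockout and 11.92 in wild type on control diet, which is 1.75-fold lower in knockout and 2.78-fold lower in wild type. Elovl5 (probe set 17519598), an elongase of polyunsaturated fatty acids, had 10.97 in knockout and 10.59 in wild type on high-fat diet, against 11.55 in knockout and 11.75 in wild type on control diet, lower by log2 differences of -0.58 in knockout and -1.15 in wild type. For both genes the high-fat arrays lay below the control arrays, with diet effects of -1.14 (SE 0.19, adjusted p = 0.226 by limma) for Elovl3 and -0.87 (SE 0.17, adjusted p = 0.280) for Elovl5. Elovl1 (probe set 17417767), an elongase of saturated very long chain acyl-CoAs, had 6.10 in knockout and 6.18 in wild type on high-fat diet, against 6.62 in knockout and 6.49 in wild type on control diet. Its diet effect was -0.42 (SE 0.13, adjusted p = 0.429 by limma), it was lower by 1.43-fold in knockout and 1.24-fold in wild type, and the arrays of the diets did not overlap. Elovl2, which lengthens polyunsaturated chains, differed by -0.05 in knockout and -0.24 in wild type. Elovl6, which lengthens palmitate to stearate, had 9.36 in knockout and 9.37 in wild type on high-fat diet, against 9.32 in knockout and 9.27 in wild type on control diet, so that its 4 arrays spanned 0.10.

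The acyl-CoA synthetases, which activate long chain fatty acids, were split. Acsl5 (probe set 17360462) had log2 values of 9.48 in knockout and 9.44 in wild type on high-fat diet, against 9.74 in knockout and 9.99 in wild type on control diet, with both high-fat arrays low and a diet effect of -0.41 (SE 0.14, adjusted p = 0.461 by limma). Acsl4 (probe set 17545051), which prefers arachidonate, had 8.36 in knockout and 8.06 in wild type on high-fat diet, against 8.25 in knockout and 7.91 in wild type on control diet. Here the order followed genotype, with both knockout arrays above both wild-type arrays. Mlxipl, Gpam, Agpat2 and Agpat3 were also ordered by genotype, with both knockout arrays below both wild-type arrays. The share of all genes ordered by genotype was not counted.

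The 9 genes of triglyceride assembly differed least by diet. In knockout all 9 diet differences were within 1.2-fold, between -0.19 and 0.26, and in wild type 7 of 9 were, between -0.30 and 0.24, and none reached 1.5-fold or an unadjusted p under 0.05 for diet. Dgat2, the acyltransferase that completes triglyceride, had log2 values of 10.71 in knockout and 10.79 in wild type on high-fat diet, against 10.45 in knockout and 10.55 in wild type on control diet. It was the enzyme of this group whose high-fat arrays were both higher, with differences of 0.26 in knockout and 0.24 in wild type and a diet effect of 0.25 (SE 0.12, adjusted p = 0.593 by limma). Gpam, the mitochondrial acyltransferase that starts the pathway, differed by -0.03 in knockout and -0.03 in wild type, and Agpat2 and Agpat3, which add the second acyl chain, by -0.01 and -0.07 in knockout and -0.09 and 0.01 in wild type. The phosphatidate phosphatase genes Lpin1 and Lpin2 had their highest value on the wild-type control array and differed by 0.06 and 0.19 in knockout and by -0.30 and -0.29 in wild type. Dgat1 differed by 0.08 in knockout and -0.22 in wild type. Lpin3 and Pnpla3, a lipid droplet acyl hydrolase, had 4-array values between 3.51 and 3.74, close to the filter cutoff, where differences are compressed.

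**Figure D2:**
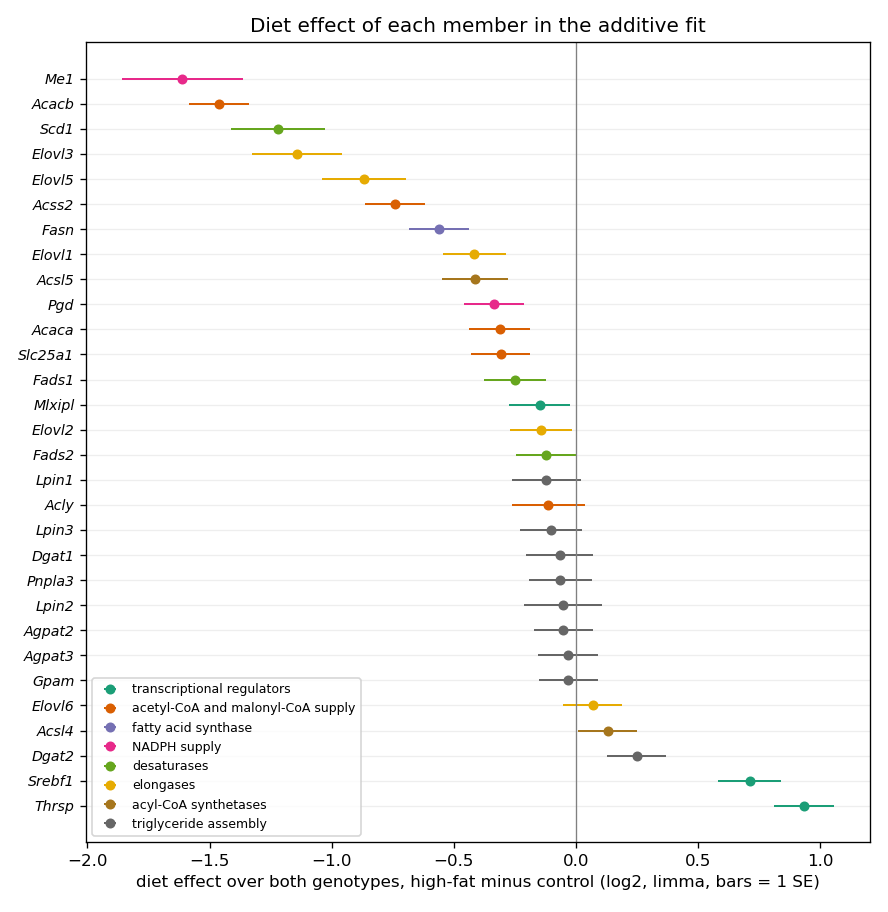
Limma's diet effect over both genotypes (high-fat minus control, log2) for the 30 genes, ordered by size, with bars of 1 SE and colours for roles. Me1, Acacb, Scd1 and Elovl3 lie below -1, Thrsp (0.94) and Srebf1 (0.71) are the highest, and the triglyceride assembly genes lie between -0.12 and 0.25.

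The next question was whether the size of the diet difference depended on genotype. It was smaller in knockout for Me1, Scd1, Elovl3 and Elovl5: the diet difference in knockout minus that in wild type was 1.03 for Me1, 0.70 for Scd1, 0.66 for Elovl3 and 0.57 for Elovl5. It was 0.03 for Acacb, 0.08 for Fasn, -0.06 for Acss2, -0.13 for Thrsp and -0.21 for Srebf1, so Acacb, Fasn and Acss2 differed by nearly the same amount in both genotypes. Over the 30 genes it was positive for 18 (55.9% of all genes), with a median of 0.06 beside 0.04 over all genes. The central 95% of all genes lay between -0.62 and 0.73, Me1 was above that range, and with 1 array a group this difference could not be tested.

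Me1, Scd1, Elovl3 and Elovl5 shared an order of arrays with Fads1, Fads2, Elovl2 and Acsl5. From low to high these 8 genes ran wild-type high-fat, knockout high-fat, knockout control, wild-type control, an order held by 5.72% of all genes and counted after the values were seen. All 3 desaturases read, 3 of 5 elongases, 1 of 2 NADPH genes and 1 of 2 synthetases had it. No regulator, no gene of acetyl-CoA and malonyl-CoA supply, and no gene of triglyceride assembly did. The regulator Thrsp and the elongase Elovl6 had the exact reverse order. The extreme at the high end of the order of the 8 genes is the wild-type control array, which was the lowest for Saa2 and the pancreas markers. At the low end is the wild-type high-fat array, which was the highest for the skeletal muscle markers read. Genes of other lists ran in the order of the 8 genes, among them Pmvk, Hmgcs1, Insig2, Cyp4a14 and the clock genes Arntl, Clock and Cry1. The clock genes Per3, Dbp and Tef ran in the exact reverse, and the other clock genes read ran in neither. Arntl had log2 values of 4.62 in knockout and 3.95 in wild type on high-fat diet, against 5.62 in knockout and 5.92 in wild type on control diet.

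**Figure D3:**
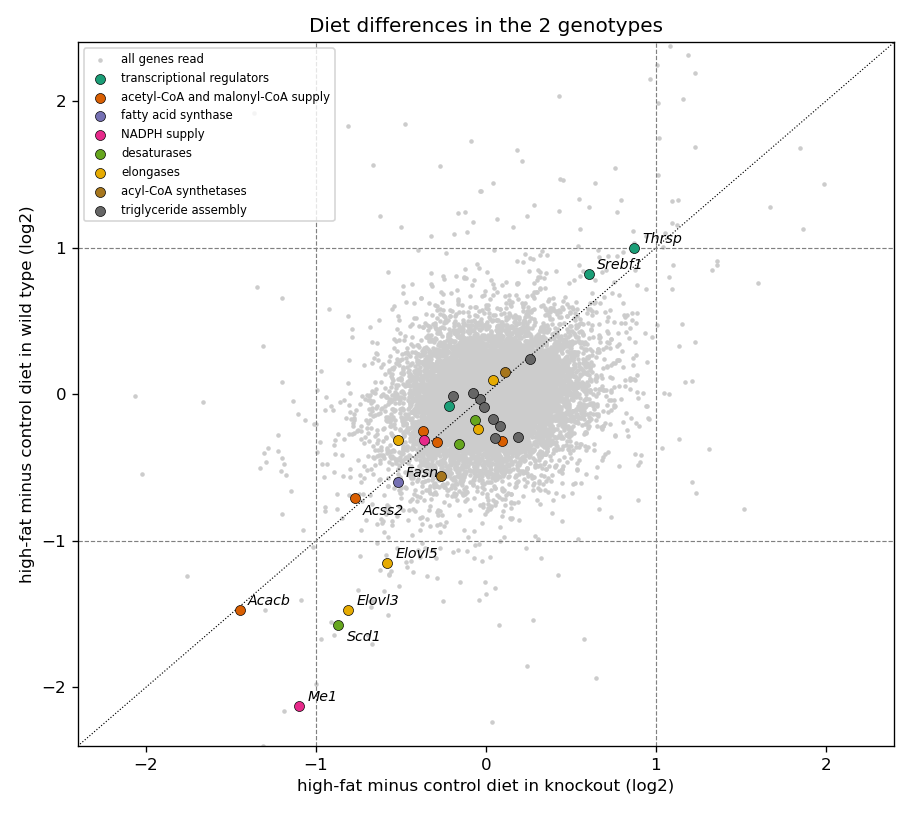
Each point is a gene, with its high-fat minus control difference in knockout (x axis, log2) and in wild type (y axis, log2), grey for all 13308 genes read and coloured by role for the 30 genes, and with dashed lines at 2-fold and a dotted line of equality. Acacb, Acss2, Fasn, Srebf1 and Thrsp lie near the dotted line, Me1, Scd1, Elovl3 and Elovl5 lie below it, and 15 other genes fall outside the axes.

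The genotype comparison asked how knockout and wild-type livers differed on each diet. Most differences were small. None of the 30 genes was at least 2-fold different on high-fat diet (0.391% of all genes) or on control diet (0.503%). None was 1.5-fold different on high-fat diet (3.1%) or on control diet (1.77%). Me1 on high-fat diet fell just short of that, at 1.497-fold. Its log2 difference there, 0.582, was above the central 95% of all genes, which ended at 0.561. After median centring it was 0.603, which passes 1.5-fold. On high-fat diet 16 genes were lower in knockout and 14 higher, with a median of -0.01 that turned to 0.01 when arrays were centred on their medians. On control diet 24 were lower in knockout and 6 higher, with a median of -0.16, against -0.02 over all genes, of which 53.3% were lower. Of 19 fatty acid oxidation genes read, described below, 18 were also lower in knockout on control diet (median -0.25). So were 21 of 31 other lipid synthesis genes (median -0.07), against 6 of 15 cholesterol synthesis genes (median 0.04). The control-diet comparison uses the same wild-type control array as the diet comparison in wild type, and the high-fat one uses the same knockout array as the diet comparison in knockout.

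By role, the desaturases, 3 of 5 elongases and Me1 were higher in knockout on high-fat diet, by up to 0.58 for Me1, 0.42 for Scd1, 0.38 for Elovl5 and 0.37 for Elovl3. On control diet the same 4 genes were lower in knockout, by -0.44 for Me1, -0.29 for Scd1, -0.20 for Elovl5 and -0.30 for Elovl3. Higher on high-fat diet and lower on control diet were 13 of the 30 genes (28.6% of all genes). Lower in knockout on both diets were 11 (24.6% of all genes), among them Fasn (-0.23 on high-fat and -0.31 on control diet), Pgd (-0.30 and -0.24), Slc25a1 (-0.20 and -0.24), Mlxipl (-0.29 and -0.16) and Acacb (-0.15 and -0.18). Acsl4 was the gene higher on both, by 0.31 on high-fat and 0.34 on control diet.

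Adjusted over all genes, limma called no gene for genotype (0.0%, 0 of the 30), where 567 genes had an unadjusted p under 0.05 and the smallest adjusted p was 0.487. Of the 30 genes, 1 was under that unadjusted threshold (4.26% of all genes): Acsl4, with a genotype effect of 0.33 (SE 0.12, unadjusted p = 0.0389, adjusted p = 0.975). Across the 30 genes the genotype differences on the 2 diets, which come from separate arrays, had r = -0.17 (Pearson) and rho = -0.19 (Spearman). Across all genes these were 0.03 and -0.00. The sign was the same on both diets for 12 of 30 genes, against 49.9% of all genes.

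The other genes around the pathway come from lists chosen with earlier results known. Of 41 other genes of lipid synthesis 31 were read. Their median diet difference was 0.10 in knockout and -0.00 in wild type, and 2 were lower and 4 higher at an unadjusted p under 0.05 for diet by limma. Fitm1, which encodes a protein of lipid droplet formation, was higher on high-fat diet by 0.88 in knockout and 0.49 in wild type. Acss3, a mitochondrial acyl-CoA synthetase of short chains, was higher by 1.52 in knockout and lower by -0.78 in wild type. Pgls, an enzyme of the pentose phosphate pathway, was lower by -0.65 in knockout and -0.28 in wild type.

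Of 27 other regulators of lipid synthesis 26 were read, 6 lower and 2 higher at an unadjusted p under 0.05 by limma, with median diet differences of -0.01 in knockout and -0.14 in wild type. Insig2, which retains SREBP in the endoplasmic reticulum, was lower by -0.55 in knockout and -0.86 in wild type. Irs2, an insulin receptor substrate, was lower by -0.55 in knockout and -0.89 in wild type. Srebf2, the regulator of cholesterol synthesis, was lower by -0.78 in knockout and -0.20 in wild type, and Pparg, known as an adipogenic receptor, differed by 0.53 in knockout and -0.61 in wild type. Of 20 genes of cholesterol synthesis 15 were read, and 13 were lower in knockout and 13 in wild type, with medians of -0.19 in knockout and -0.30 in wild type, beside -0.12 and -0.27 for the 30 genes. The largest were Pmvk (-0.66 in knockout and -1.41 in wild type), Hmgcs1 (-0.27 and -1.05) and Sqle (-0.95 and -0.77), and 6 of the 15 were under an unadjusted p of 0.05, all 6 lower. Both high-fat arrays lay below both control arrays for 9 of the 15, as they did for 16 of the 30 genes. Of 23 genes of fatty acid oxidation and its PPAR-alpha targets 19 were read, with medians of 0.05 in knockout and -0.12 in wild type. In wild type 5 of them were at least 2-fold lower (0.564% of all genes), and 1 of them, Fgf21, also in knockout (0.286% of all genes). Fgf21, a hormone of the fasted liver, differed by -1.19 in knockout and -2.16 in wild type. Cyp4a14, a fatty acid omega-hydroxylase, differed by -0.91 in knockout and -2.80 in wild type, Acot1, an acyl-CoA thioesterase, by -0.04 and -1.41, and Pdk4, a pyruvate dehydrogenase kinase, by 0.05 and -1.32.

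Markers of other processes and cells were also read by diet, and they did not all differ in the same direction. Of 16 clock genes 14 were read, 3 lower and 4 higher at an unadjusted p under 0.05 for diet by limma. Besides Arntl, Ciart was higher by 0.94 in knockout and 1.08 in wild type, Per3 by 0.77 and 1.24, and Dbp by 0.55 and 0.88. Of 10 fasting and feeding genes read, 7 were lower on high-fat diet in knockout and 9 in wild type, with medians of -0.22 in knockout and -0.44 in wild type. Fgf21 had the largest difference, and Igfbp1, an insulin-repressed gene, was lower by -0.56 in knockout and -1.21 in wild type. Adipocyte markers summed to a linear level of 8272 in knockout and 7490 in wild type on high-fat diet, against 5215 in knockout and 5864 in wild type on control diet, with 7 of 10 markers read. Car3, which liver also expresses, made up at least 96.8% of each sum. The other 8 markers with a probe set summed to 224 in knockout and 186 in wild type on high-fat diet, against 169 in knockout and 158 in wild type on control diet. Fabp4 was the brightest of these 8, with log2 values of 7.07 and 6.43 against 6.31 and 6.10 in the same order. Adipoq (3.12 to 3.31) and Lep (3.13 to 3.24) were below the filter cutoff on all arrays. Of the 7 markers read, 4 were lower on high-fat diet in knockout (median -0.05) and 2 in wild type (median 0.32). Skeletal muscle markers summed to 109 in knockout and 271 in wild type on high-fat diet, against 119 in knockout and 130 in wild type on control diet, with 7 of 9 read. The part of the collection hour, the feeding state and these other cells in the lipogenic differences was not tested.

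**Figure D4:**
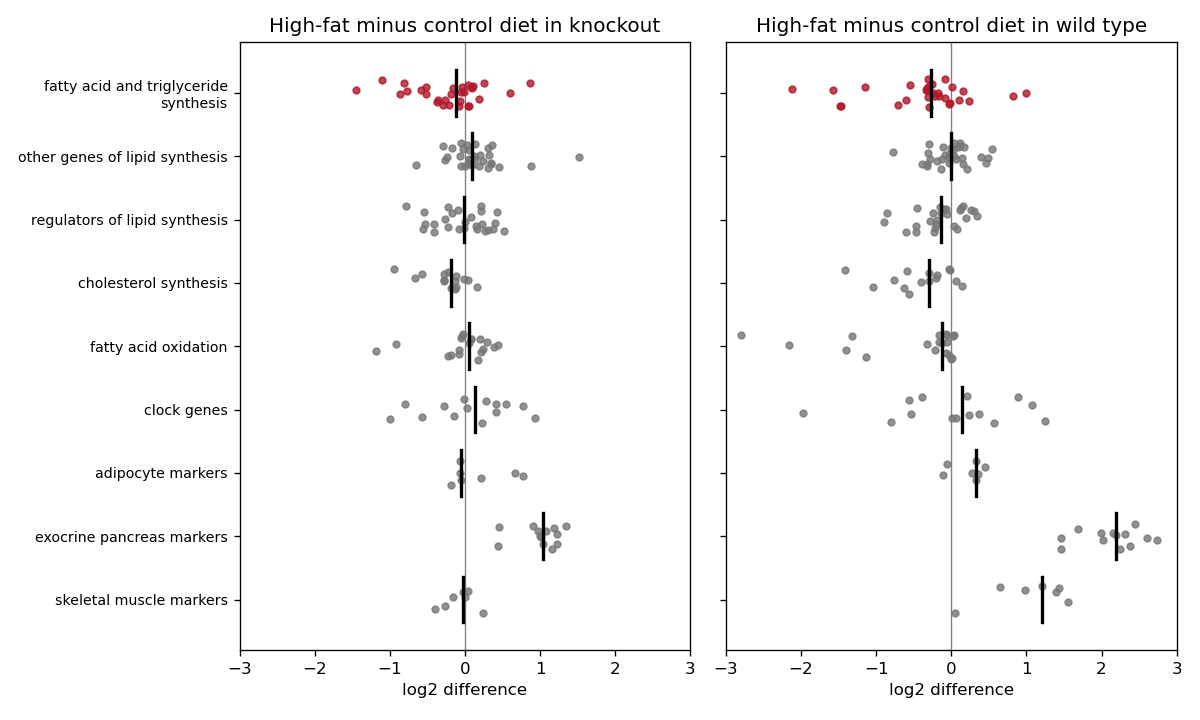
High-fat minus control differences (log2) of each gene of 9 lists in knockout (left) and wild type (right), with a black bar at the list's median, and points spread vertically only for legibility. The 30 genes (red) have medians of -0.12 in knockout and -0.27 in wild type, and the exocrine pancreas markers, all higher, have medians of 1.04 in knockout and 2.19 in wild type.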

How the data were processed

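Liver RNA pools of 4 groups were compared, with 1 array each. The authors deposited log2 values per probe set. Per the submitters' processing notes these came from Affymetrix Expression Console with RMA, which corrects background, normalises by quantiles and compresses differences of dim probe sets. Its version and probe set library are not stated in the sources used here, and signal over background is unknown. Of 41345 probe sets, 23521 have 1 gene symbol, 1814 several and 16010 none in the platform annotation. Each gene was read from its brightest probe set of 1 symbol, above the 40th percentile of mean values.

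Differences between 2 arrays are subtractions and were counted at 2-fold. Diet and genotype effects were fitted additively with limma 3.58.1 in R 4.3.3 (lmFit, eBayes, Benjamini-Hochberg adjustment at 0.05 over 13308 genes), and the fit was tested on simulated data. The remaining steps used Python 3.11.15 (NumPy 2.4.6, pandas 2.3.3, matplotlib 3.10.9, SciPy 1.17.1). Alternatives were cyclic loess, median centring, the mean over probe sets, no filter, a 60th percentile filter, a 1.5-fold threshold and an intensity trend in eBayes.

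The genes, gene lists and tests were chosen with earlier results of these data known. Values on all arrays are given for genes at least 2-fold different in a comparison of 2 arrays, those at an unadjusted p under 0.05, the 3 regulators, and those singled out after their values were seen (Acly, Elovl6 and Dgat2). Other lists could name 4 genes with the largest differences, and Clock, Cry1 and Tef were named beyond these for their order of arrays. A planned comparison of protein sequences was not made. Promoters are from RefSeq on GRCm38.p6.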

Additional observations from a re-analysis of the deposited data

How the results depend on the processing

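No paired analysis was possible because each group had 1 array. The differences of the 16 single genes followed here moved by at most 0.07 under cyclic loess. Median centring shifts all genes of an array alike, and moved them by at most 0.02. The mean over probe sets could not move them, because each of the 16 had 1 probe set. Of 73 values of counts and medians under alternatives, 66 kept their direction and stayed within 1.5 times. The exceptions among these counts and medians were the following. With a 1.5-fold threshold, 7 genes differed by diet in knockout and 9 in wild type, in place of 2 and 5 at 2-fold. Without the filter, 3 genes (Fasn, Pgd and Acsl4) in place of 1 had an unadjusted p under 0.05 for genotype by limma. The median genotype difference on high-fat diet, -0.01, was -0.0468 after cyclic loess, -0.0139 with a 60th percentile filter and 0.0140 after median centring, which turned its sign. Cyclic loess raised the genes called for diet by limma's adjusted test from 0 to 5 of the 30, and the other 5 alternatives called 0; the cause was not tested. With no replicate, no array could be left out, and the dim probe sets of Lpin3 and Pnpla3 limit what their values show.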
